A study of Sus scrofa with 30 samples.

Results

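Trimethylation of histone H3 at lysine 4 (H3K4me3) was compared between pig 4-cell embryos labelled siKDM5BC and untreated pig 2-cell embryos, using 4 of the 30 libraries of the series, 2 in each group. The siKDM5BC prefix in the sample titles was read as small interfering RNA against KDM5B and KDM5C. No library was labelled with a control siRNA, and the labels used here gave no dose, delivery, embryo number, strain or parental age. Stage, siRNA and handling therefore cannot be told apart between these groups. Untreated 4-cell embryos, also 2 libraries, are given beside them where the same stage without the siRNA label matters. Chromatin was profiled by native immunoprecipitation from very few cells (ULI-NChIP-seq), and each library is 1 deposited list of broad peaks. The labels do not say whether replicates came from separate embryo collections, so replicate spread may be technical.

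H3K4me3 is deposited by the SET1 and MLL (KMT2) complexes and typically sits as a narrow peak at the promoters of active or poised genes. Oocytes and early embryos of several mammals also carry it in wide domains away from promoters, which are removed as the embryonic genome is activated. KDM5B and KDM5C are lysine demethylases that take methyl groups off this residue, and KDM5 enzymes are known in mouse embryos for clearing the wide domains. In the pig the main wave of genome activation falls around the 4-cell stage. The comparison addressed how the H3K4me3 map of siKDM5BC 4-cell embryos relates to the map of the preceding 2-cell stage.

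The siKDM5BC lists held more marked sequence than the 2-cell lists, in fewer and wider peaks. On chromosomes 1 to 18 there were 88330 and 79874 peaks in the siKDM5BC libraries, against 117417 and 109081 in the 2-cell libraries. They covered 173.9 and 159.4 Mb in siKDM5BC embryos and 126.4 and 106.2 Mb in 2-cell embryos. Both siKDM5BC libraries lay above both 2-cell libraries, with means of 166.6 ± 10.2 Mb and 116.3 ± 14.3 Mb (SD, n = 2 each), a ratio of 1.43. Untreated 4-cell embryos covered 55.4 and 31.0 Mb, less than either. The difference between siKDM5BC and 2-cell libraries was 0.52 on the log2 scale, which is 1.36 times the replicate SD pooled over all 9 groups of H3K4me3 libraries. An exact permutation test, two-sided, gave p = 0.333, the smallest p that 2 libraries against 2 can give.

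Width separated the groups more than total length did. The median peak was 1185 and 1227 bp wide in siKDM5BC libraries, against 726 and 683 bp in 2-cell libraries. Peaks of 5 kb or wider numbered 6385 and 5833 in siKDM5BC embryos and 1469 and 737 in 2-cell embryos, a ratio of means of 5.54. Such wide peaks were rare in untreated 4-cell embryos, with 326 and 79. They held 32.7% and 32.4% of the covered length in siKDM5BC libraries, against 7.71% and 4.40% in 2-cell libraries. This difference of 26.5 percentage points was 9.02 times the pooled replicate SD (exact permutation test, two-sided, p = 0.333). Peaks of 10 kb or wider covered 23.9 and 21.6 Mb in siKDM5BC embryos and 0.946 and 0.296 Mb in 2-cell embryos. When peaks of a library less than 3 kb apart were joined, the wide share was 69.3% and 69.9% in siKDM5BC embryos and 67.1% and 59.8% in 2-cell embryos, so the difference shrank to 6.12 points.

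**Figure D1:**
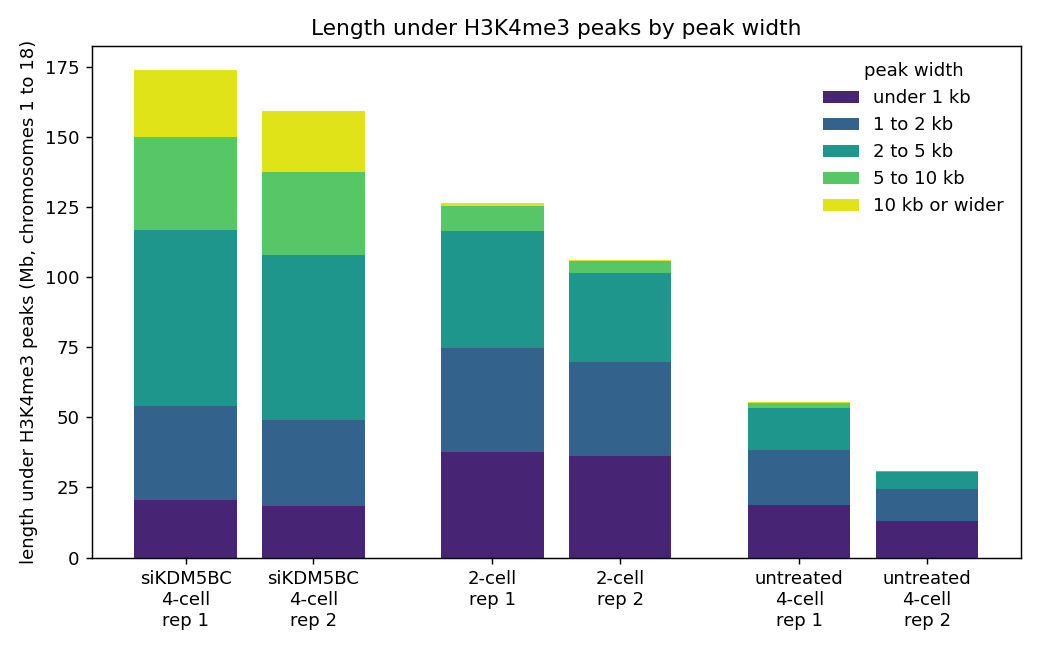
Length under H3K4me3 peaks on chromosomes 1 to 18 (Mb) in each library, stacked by peak width class, for siKDM5BC 4-cell, 2-cell and untreated 4-cell embryos. The 2 siKDM5BC bars reach 173.9 and 159.4 Mb, and the classes of 5 kb and wider are much thicker in them than in the other 4 bars.

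Position relative to genes differed by less than the replicate spread. Of the covered length, 64.0% and 63.8% lay more than 5 kb from any protein-coding gene end in siKDM5BC libraries, against 62.6% and 61.2% in 2-cell libraries. The difference of 2.01 points was 0.81 times the pooled replicate SD (exact permutation test, two-sided, p = 0.333), and it depended on peak strength. It was 13.5 points with −log10 q of 2 or more and 6.52 with fold of 3.5 or more, but −5.19 with −log10 q of 3 or more and −6.88 at one equal covered length per list. In untreated 4-cell libraries the share was 47.5% and 40.1%. On every one of the 18 chromosomes the siKDM5BC mean covered length exceeded the 2-cell mean, with ratios between 1.23 on chromosome 13 and 1.71 on chromosome 11.

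Peak strength also differed between the lists. Peaks with the authors' −log10 q of 3 or more made up 23.3% and 24.3% of the siKDM5BC lists, against 0.611% and 1.11% of the 2-cell lists. In untreated 4-cell lists the share was 32.6% and 26.8%. The lists hold no read totals, so depth is unknown. A background recovered from the deposited fold and p columns was 1.22 and 1.10 reads per position in siKDM5BC libraries and 1.41 and 1.32 in 2-cell libraries. The weakest listed peaks had folds of 2.70 and 2.86 in siKDM5BC lists and 2.90 and 3.02 in 2-cell lists. With all 4 lists limited to one common lowest fold, an alternative chosen after seeing the data, the siKDM5BC libraries covered 144.3 and 146.5 Mb and the 2-cell libraries 107.5 and 106.2 Mb.

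Most of the 2-cell map was found again in siKDM5BC embryos. A siKDM5BC library met between 57.6% and 62.3% of the peaks of a 2-cell library, where met means sharing at least 1 bp. The other 2-cell library met 52.2% and 58.3%, so siKDM5BC libraries met 2-cell peaks about as often as a 2-cell replicate did. Untreated 4-cell libraries met 21.0% to 31.7% of them. The 2 siKDM5BC libraries met 67.7% and 76.3% of one another's peaks. Covered length differs between these lists, and a longer list meets more peaks. When each list was limited to its strongest peaks up to one equal covered length, siKDM5BC libraries met 38.4% to 44.4% of 2-cell peaks and the 2-cell replicates met 59.9% and 49.98% of one another's.

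To follow single places, peaks of both libraries of a group were merged, and a merged run counted as a region where it held peaks of both. There were 55948 such 2-cell regions, with a median width of 1706 bp, and 54755 siKDM5BC regions, with a median width of 2325 bp. A 2-cell region was kept where peaks of both siKDM5BC libraries met it, and lost where neither did. It was widened where the peaks meeting it summed to more length in both siKDM5BC libraries than in both 2-cell libraries, with means at least 2 times apart, and narrowed in the opposite case. Since these classes are counts over regions of the same 4 libraries, they carry no test.

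Of the 2-cell regions, 42510 (76%) were kept and 6521 (11.7%) were lost. Another 6917 regions (12.4%) were met in 1 siKDM5BC library. Among the kept regions 18066 were widened (32.3% of all 2-cell regions), 690 were narrowed (1.23%) and 23754 were neither (42.5%). Widened regions were thus more numerous than narrowed ones, and with peaks under 3 kb apart joined the shares were 18.5% and 5.58%. Of the kept regions, 83.7% met more siKDM5BC than 2-cell length, and the median ratio over them was 1.89. The classes were spread over all chromosomes, with 72.1% to 81.1% of 2-cell regions kept and 25.9% to 40.1% widened on each. At one equal covered length per list the balance moved, with 52.0% of 47116 regions kept, 23.4% widened and 30.8% lost. With at least 50% of a region covered in place of 1 bp, 56.9% of 2-cell regions were kept, 28.5% widened and 24.1% lost. Counts also depended on having 2 libraries a group. Without siKDM5BC replicate 1 there were 10647 lost regions, and without 2-cell replicate 1 or 2, when each peak of the remaining list is a region, 33232 and 38357 were lost and 34177 and 32943 widened.

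Wide 2-cell regions were kept and narrow ones made up most of the losses. Since 1 shared bp is enough to meet a region, a wide region is met more easily than a narrow one. All 242 regions of 10 kb or wider were kept, as were 99.5% of those from 5 to 10 kb and 91.3% of those from 2 to 5 kb. Below 1 kb, 50.6% were kept and 27.4% were lost. Strength went the same way within each 2-cell list. Of the top 10% of peaks by the authors' fold, 74.0% and 76.2% were met by both siKDM5BC libraries, against 21.2% and 23.8% of the lowest 10%. The other 2-cell replicate met the top 10% in 72.3% and 76.7% of cases and the lowest 10% in 24.8% and 32.6%, so a replicate also missed weak peaks more often than strong ones.

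**Figure D2:**
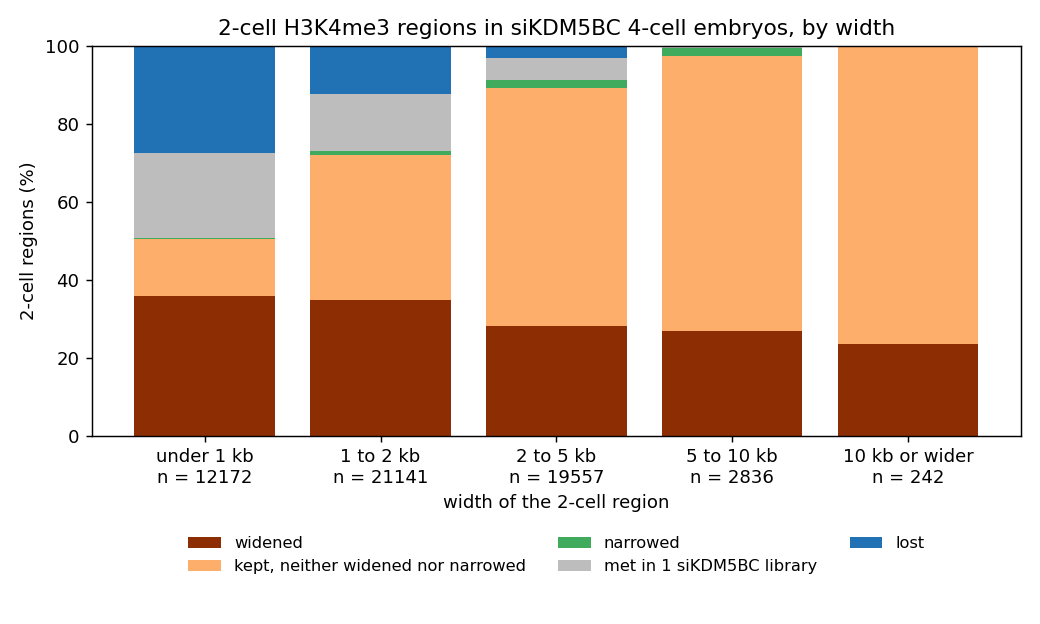
Share of 2-cell H3K4me3 regions (%) that were widened, kept with neither change, narrowed, met in 1 library or lost in siKDM5BC 4-cell embryos, by width of the 2-cell region. The lost share is 27.4% under 1 kb and 0 at 10 kb or wider, while the widened share lies between 35.9% and 23.6% in every width class.

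The widest kept regions lay at genes of several kinds. The widest, at SUSD4 on chr10:19412997-19457891, held 39570 and 38768 bp of siKDM5BC peaks and 43135 and 43085 bp of 2-cell peaks. The next, on chr10:24930194-24962231 at CYB5R1, held 31895 and 32030 bp in siKDM5BC libraries and 31207 and 31889 bp in 2-cell libraries. Both stood out across the whole series: at least 80% of the SUSD4 region was covered in 17 of 18 H3K4me3 and 10 of 12 H3K27me3 lists, and of the CYB5R1 region in 18 of 18 and 11 of 12. The other 3 of the 5 widest were covered to that extent in 3 or 4 of the 18 H3K4me3 lists and in 0 of the 12 H3K27me3 lists. One of them, chr12:36873021-36895757, holds TBX2, a T-box transcription factor of organ formation, with 20687 and 21119 bp in siKDM5BC embryos and 22466 and 15879 bp in 2-cell embryos. Another, chr12:20147647-20171948, spans CCR10, a chemokine receptor, and CNTNAP1, an axonal adhesion protein, with 19231 and 21730 bp in siKDM5BC embryos against 21420 and 19581 bp in 2-cell embryos. The last, chr6:51570316-51592029, spans TRAPPC6A and BLOC1S3, which act in vesicle traffic. It met 24643 and 22158 bp of siKDM5BC peaks and 17825 and 15855 bp of 2-cell peaks.

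At widened regions, which were chosen for a ratio of at least 2, the siKDM5BC peaks were about 4 times as wide. Over all kept regions the median ratio was 1.89. A siKDM5BC peak counts at full width for each 2-cell region that it meets, so 1 domain can enter several widened regions. Median length meeting a widened region was 4915 and 4590 bp in siKDM5BC libraries, against 1122 and 964 bp in 2-cell libraries, with a median ratio of 4.06. In 6685 of them (37.0%) both siKDM5BC libraries had more than 5 kb. Regions kept with neither change met 2136 and 1967 bp of siKDM5BC peaks and 1759 and 1586.5 bp of 2-cell peaks. Of the widened regions 39.5% lay within 5 kb of a gene end, 26.9% elsewhere in a gene body and 33.6% between genes. For regions kept with neither change these shares were 49.9%, 20.6% and 29.5%.

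**Figure D3:**
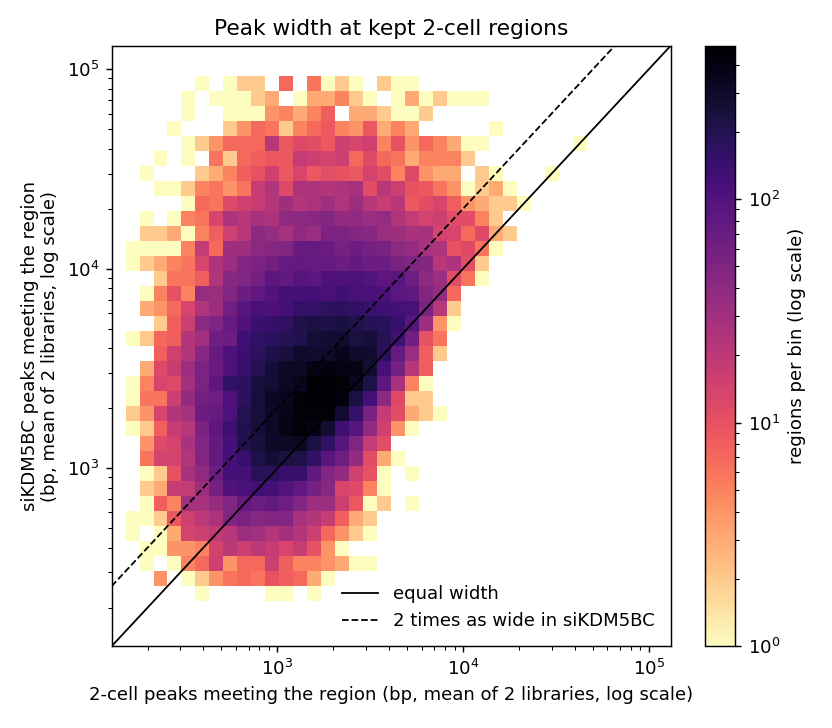
Summed width of the siKDM5BC peaks (vertical axis) and of the 2-cell peaks (horizontal axis) that meet each of the 42510 kept 2-cell regions, both in bp as the mean of 2 libraries on log scales, with shading for the number of regions per bin. Most regions lie above the line of equal width (83.7%), and 47.3% lie on or above the dashed line of 2 times the width.

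Wide siKDM5BC regions, or domains, mostly spanned several 2-cell peaks. There were 8827 siKDM5BC regions of 5 kb or wider, with 82.1 Mb in all, and 68.7% of them held at least 2 peaks of each 2-cell library. Among siKDM5BC regions under 5 kb the share was 5.74%. A longer stretch can hold more peaks by its length alone, and joining of neighbouring peaks was not tested. The 444 regions of 20 kb or wider held a median of 8 peaks of each 2-cell library and up to 39. The 2-cell libraries covered a median of 53.1% and 36.6% of such a domain. Only 33 of the 8827 wide regions (0.374%) held no 2-cell peak.

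Length was followed base by base as well. Peaks of both siKDM5BC libraries shared 117.7 Mb, of which 32.1% lay under peaks of both 2-cell libraries, 37.1% under those of 1 and 30.8% under neither. Of the 36.2 Mb under neither, 89.3% lay in siKDM5BC regions that met a 2-cell peak elsewhere along their length, and 10.7% in regions that met none. Nearly all of it, 96.2%, lay within 5 kb of a 2-cell peak. In the other direction, 70.9% of the 53.3 Mb shared by both 2-cell libraries lay under peaks of both siKDM5BC libraries, and 13.1% under neither.

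The widest siKDM5BC domains lay over genes of transport and signalling. The first, chr17:61870681-61996251, is 125571 bp wide and spans SLCO4A1, an organic anion transporter, and NTSR1, the neurotensin receptor. Peaks covered 120357 and 124160 bp of it in siKDM5BC embryos, in 6 and 2 peaks, against 70177 and 38473 bp in 2-cell embryos, in 38 and 33 peaks. Untreated 4-cell libraries covered 34867 and 17351 bp. The same stretch was thus broken into many peaks at the 2-cell stage and nearly continuous in siKDM5BC embryos.

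Other wide domains had the same form. At chr16:79306715-79420482, over SLC12A7, a potassium-chloride cotransporter, and NKD2, an inhibitor of WNT signalling, siKDM5BC libraries covered 112428 and 111389 bp and 2-cell libraries 53385 and 34080 bp. The domain at PTPRF, a receptor tyrosine phosphatase, on chr6:167652205-167739772 had 85785 and 86382 bp in siKDM5BC embryos against 58792 and 45866 bp in 2-cell embryos. PRDM16, a zinc finger factor of the PRDM family, lay under 77808 and 75971 bp in siKDM5BC embryos and 42753 and 26448 bp in 2-cell embryos. These 4 domains were chosen for their width in siKDM5BC embryos, so the lower 2-cell cover in them follows in part from that choice.

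Widened regions with the largest gains were short 2-cell peaks inside such domains. In SLC12A7 a region of 643 bp, chr16:79369193-79369835, met 85976 and 71274 bp of siKDM5BC peaks and 467 and 392 bp of 2-cell peaks. Another 3 lay near PXDN, a peroxidase of the extracellular matrix, in PTPRF, and near BAHCC1, a BAH-domain chromatin protein. Their siKDM5BC peaks ran from 58359 to 83992 bp and their 2-cell peaks from 204 to 842 bp.

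Narrowed regions were few. The largest, chr7:55725375-55735084, lay 17769 bp from SEMA4B, a semaphorin of cell guidance, and met 1453 and 2324 bp of siKDM5BC peaks, against 8078 and 5899 bp of 2-cell peaks. The region over KCNE1, a potassium channel subunit, on chr13:198058058-198067059 met 2289 and 3294 bp in siKDM5BC embryos and 7173 and 4891 bp in 2-cell embryos. Over all 690 narrowed regions the median was 661 and 621.5 bp in siKDM5BC libraries and 2009.5 and 1742 bp in 2-cell libraries.

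Lost 2-cell regions were narrow and mostly away from gene ends. Their median width was 981 bp, and 3 of 6521 reached 5 kb. Within 5 kb of a gene end lay 22.7% of them, compared with 45.2% of the kept regions. The widest, chr7:52564081-52569438, lay 5598 bp from PDE8A, a cyclic AMP phosphodiesterase. It had no siKDM5BC peak, against 5358 and 290 bp in 2-cell libraries, so 1 of the 2-cell libraries carried nearly all of it. At LOC102163598 on chr13:121988845-121993951, siKDM5BC libraries were listed at 0 and 2-cell libraries had 2311 and 4074 bp. Another lost region lay 41751 bp from MAPK6, a kinase of the atypical MAP kinase class. Others lay 10072 bp from IGF2BP1, an mRNA-binding protein, and 38410 bp from AHCY, which hydrolyses S-adenosylhomocysteine. Those nearest MAPK6, IGF2BP1 and AHCY were also listed at 0 in siKDM5BC embryos. In 2-cell embryos they held between 2151 and 3837 bp a library. Of the lost regions, 74.0% lay within 5 kb of a siKDM5BC peak.

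Regions of siKDM5BC embryos in no 2-cell list were a minority and also narrow. Of 54755 siKDM5BC regions, 36715 (67.1%) met peaks of both 2-cell libraries, 11306 (20.6%) met peaks of 1, and 6734 (12.3%) met none. The regions that met none are called new, a word that refers to these lists alone. Their median width was 1173 bp, against 2975 bp for siKDM5BC regions met by both 2-cell libraries. They lay within 5 kb of a gene end in 18.1% of cases and between genes in 46.8%. The nearest 2-cell peak was a median of 2479.5 bp away, and closer than 5 kb for 69.3% of them. With 1 common lowest fold for all 4 lists the number of new regions was 3580, and at one equal covered length it was 732. Without siKDM5BC replicate 1 or 2 it was 19864 and 25781, and without 2-cell replicate 1 or 2 it was 13057 and 11717.

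The widest new regions lay far from genes or inside them. The widest, chr12:57894320-57903451, lay 108379 bp from COX10, a heme biosynthesis enzyme of mitochondria. It had 8953 and 6132 bp in siKDM5BC embryos and was listed at 0 in both 2-cell libraries. Regions on chromosome 14 lay 198438 bp from MKI67, a protein of proliferating cells, with 5464 and 7171 bp in siKDM5BC libraries, and 418138 bp from MGMT, a DNA repair methyltransferase, with 7523 and 5096 bp. Inside SMOC2, a secreted calcium-binding matrix protein, siKDM5BC libraries had 3565 and 6146 bp over chr1:1199736-1206668. Inside RGS12, a regulator of G protein signalling, they had 4898 and 4765 bp. All of these were at 0 in both 2-cell libraries, and the untreated 4-cell libraries had at most 1394 bp in any of them.

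Lists of the other stages placed the classes in development. Of the length of widened regions 33.0% and 18.8% lay under untreated 4-cell H3K4me3 peaks, and 34.3% and 22.4% of the length of regions kept with neither change. The shares were 2.397% and 1.05% of lost and 9.33% and 3.59% of new regions, where these peaks covered 2.45% and 1.37% of the chromosomes. In germinal vesicle (GV) oocytes, H3K4me3 covered 47.8% and 43.7% of widened regions, 45.1% and 34.8% of regions kept with neither change, and 24.1% and 16.2% of new regions. It covered 3.84% and 1.98% of lost regions. In 1-cell embryos the lost regions were covered over 17.1% and 26.5% of their length, and the new regions over 4.99% and 17.97%. GV peaks covered 4.46% and 3.12% of the chromosomes as a whole and 1-cell peaks 3.03% and 6.12%, so lost regions were covered below the chromosome share in GV oocytes and above it at the 1-cell stage.

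Counting regions rather than length, 5392 of the 6734 new regions (80.1%) were met in at least 1 list of GV oocytes, metaphase II (MII) oocytes or 1-cell embryos. The share was higher for the other siKDM5BC regions, at 98.4% of those met in both 2-cell lists and 91.1% of those met in 1. Of the 6521 lost regions 4234 (64.9%) were met in these early lists, against 98.1% of widened regions. An untreated 4-cell list met 26.7% of new and 8.89% of lost regions, against 73.9% of siKDM5BC regions met in both 2-cell lists. In no untreated list of any stage were 709 new regions (10.5%) found.

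H3K27me3, the repressive mark of Polycomb complex 2, set the widened regions apart in MII oocytes. MII H3K27me3 peaks covered 36.1% and 32.2% of the length of widened regions, against 11.7% and 10.4% for regions kept with neither change. They covered 12.9% and 11.6% of new and 2.74% and 2.37% of lost regions, and 3.04% and 2.64% of the chromosomes. Cover was greater the wider the siKDM5BC region, at 11.3% and 10.2% under 5 kb, 22.8% and 20.01% from 5 to 10 kb, 39.4% and 34.8% from 10 to 20 kb, and 65.8% and 59.5% at 20 kb or wider. At the 2-cell and 4-cell stages H3K27me3 covered at most 0.206% of the length of widened regions. Its peaks covered little of the chromosomes then, 0.0872% and 0.0553% at the 2-cell stage and 0.766% and 1.20% at the 4-cell stage. In blastocysts it covered 17.2% and 22.01% of widened regions, against 10.7% and 13.6% of regions kept with neither change. The blastocyst peaks covered 3.43% and 4.33% of the chromosomes. These shares are descriptions over regions of a few libraries and carry no test.

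**Figure D4:**
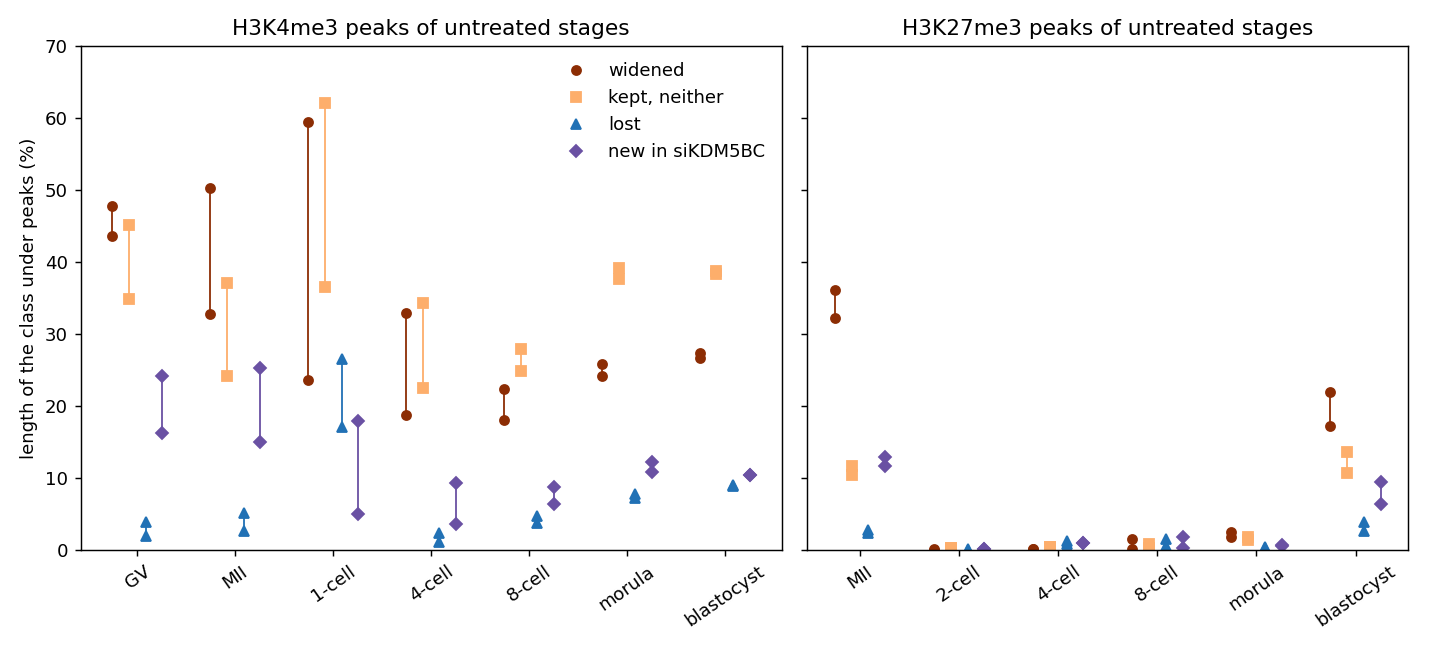
Share of the length of each class of region (%) that lies under H3K4me3 peaks (left) and H3K27me3 peaks (right) of untreated stages, with 1 point per library and a line joining the 2 libraries of a stage. Widened regions stand above the other classes for MII H3K27me3 (36.1% and 32.2%), and lost regions lie lowest in GV H3K4me3 (3.84% and 1.98%). The class kept without widening or narrowing is shown as kept, neither.

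MII H3K27me3 covered 101058 and 82124 bp of the domain of SLCO4A1 and NTSR1, which siKDM5BC peaks covered over 120357 and 124160 bp and 2-cell peaks over 70177 and 38473 bp. The SLC12A7 domain had 100833 and 96900 bp under MII H3K27me3, and the PRDM16 domain 73803 and 68013 bp. Cover was lower at BAHCC1 on chr12:1401693-1478170, a domain of 76478 bp, with 37859 and 26131 bp.

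Genes were compared by the length under peaks within 5 kb of either gene end, since the annotation used here gives no strand. The targets came first. KDM5B had 6512 and 7208 bp in siKDM5BC libraries and 8454 and 6342 bp in 2-cell libraries, which overlap. KDM5C, on chromosome X, had 2676 and 1837 bp in siKDM5BC libraries, above the 498 and 1474 bp of 2-cell libraries. Since a knockdown acts on RNA, H3K4me3 at these genes does not check it.

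Of 17115 genes tested with limma over all 18 H3K4me3 libraries, 10 rose (0.0584%) and 5 fell (0.0292%) in siKDM5BC embryos at a Benjamini-Hochberg (BH) adjusted p of 0.05. At an unadjusted p under 0.05 there were 1532 higher and 169 lower. The groups did not overlap for 7856 genes that were higher (45.9%) and 1338 that were lower (7.82%) in siKDM5BC embryos. Over all genes tested the median log2 difference was 0.40, and 74.4% of differences were positive. When each gene's length was taken as a share of its library's total, the median was −0.06, with 2 genes higher and 1 lower. None of the 15 called genes passed when either siKDM5BC library was left out, where limma called 0 genes higher and 0 or 2 lower. Without 2-cell replicate 1 it called 36 higher and 7 lower, and without 2-cell replicate 2 it called 52 and 6. In a fit of the 4 compared libraries alone limma called 0 in either direction, with 3305 higher and 219 lower at an unadjusted p under 0.05.

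Most genes that rose had no 2-cell peak within 5 kb of an end. CARF, a calcium-responsive transcription factor, had 3309 and 4483 bp in siKDM5BC embryos and was listed at 0 in both 2-cell libraries (limma, BH adjusted p = 0.00707). Untreated 4-cell libraries had 1793 and 2533 bp there. LMO3, a LIM-domain cofactor of transcription, had 5256 and 2623 bp in siKDM5BC embryos and 0 in 2-cell embryos (BH adjusted p = 0.0178). MEOX2, a homeobox gene of mesoderm, had 3352 and 3095 bp in siKDM5BC libraries and 0 and 166 bp in 2-cell libraries (BH adjusted p = 0.0407). The pattern of a mark in all siKDM5BC and untreated 4-cell libraries, with none at the 2-cell stage, also held for LOX, which crosslinks collagen, NUDT9, an ADP-ribose hydrolase, and EBAG9.

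For 2 genes that rose both 2-cell libraries were marked. FAR1, a fatty acyl-CoA reductase of ether lipid synthesis, had 3555 and 4155 bp in siKDM5BC embryos and 204 and 596 bp in 2-cell embryos, a log2(bp + 100) difference of 3.10 ± 0.50 (SE, BH adjusted p = 0.0407). PANK1, a pantothenate kinase of coenzyme A synthesis, had 4400 and 3347 bp in siKDM5BC embryos and 823 and 810 bp in 2-cell embryos, a difference of 2.10 ± 0.35 (BH adjusted p = 0.0469). The direction at PANK1 turned to −2.39 with only peaks of fold 3.5 or more and to −3.20 at equal covered length. The remaining 2 of the 10 were LOC102162296, with 1818 and 2147 bp in siKDM5BC libraries, and LOC100521068, with 1090 and 1196 bp. Both were listed at 0 in 2-cell and in untreated 4-cell libraries.

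All 5 genes that fell were listed at 0 in siKDM5BC and in untreated 4-cell embryos. LOC102163598, which also holds one of the widest lost regions, was at 0 in siKDM5BC libraries and had 3346 and 6179 bp in 2-cell libraries (limma, BH adjusted p = 0.00859). TMEM252, a transmembrane protein gene, had 0 in siKDM5BC libraries and 1954 and 2340 bp in 2-cell libraries (BH adjusted p = 0.0469). DNASE1L3, a secreted DNase, had 0 in siKDM5BC libraries and 1364 and 1656 bp in 2-cell libraries (BH adjusted p = 0.0144). EVI2B and LOC102167784 had between 727 and 1106 bp in the 2-cell libraries.

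**Figure D5:**
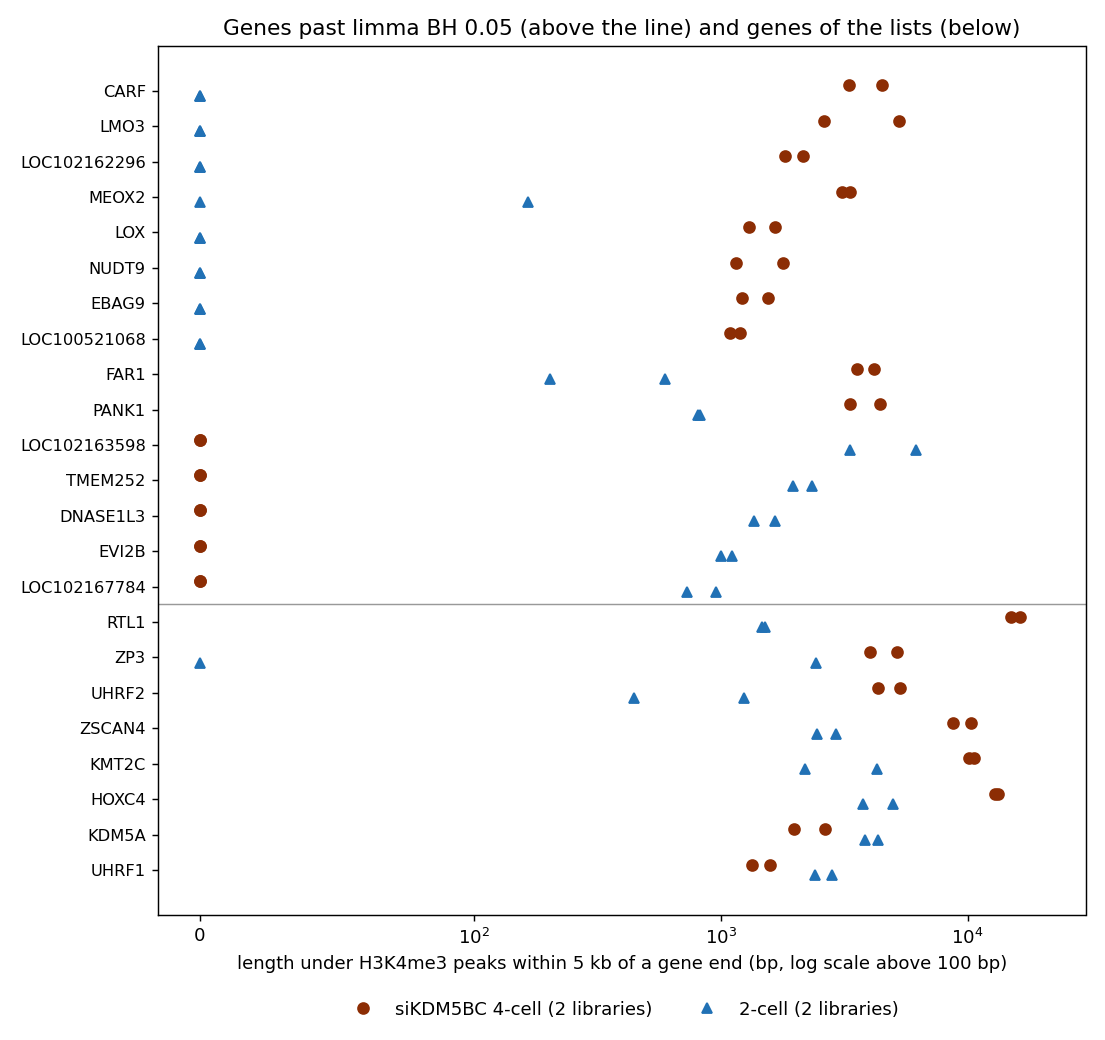
Length under H3K4me3 peaks within 5 kb of either gene end (bp, log scale above 100 bp) for the 15 genes past limma at BH 0.05, above the line, and for genes of the lists, below it, with circles for the 2 siKDM5BC libraries and triangles for the 2 2-cell libraries. Genes of the lists were chosen from those whose circles and triangles do not overlap, and the same rule was set for genes above the line. RTL1 reaches 16295 and 14954 bp in siKDM5BC embryos.

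No gene of the 14 lists examined passed the BH threshold in limma. Of 447 list genes tested, 41 were higher (9.17%) and 0 were lower at an unadjusted p under 0.05, near the 8.95% higher among all genes. The shares of genes higher without overlap were read against the 45.9% of all genes. The largest shares were in trophectoderm genes (19 of 22), HOX cluster genes (30 of 36) and other developmental transcription factors (66 of 83). Windows of neighbouring HOX genes overlap, so a peak can count for several of the 36, which are not separate observations. Median log2 differences of the trophectoderm, HOX and developmental lists were 0.66, 0.50 and 0.44, beside 0.40 for all genes. As shares of each library's total the medians were 0.14, −0.02 and −0.08, so the direction of the last 2 lists turns with this scaling. At equal covered length the medians were 0.36, 0.47 and 0.40, beside 0.18 for all genes. As shares of library totals, the median was above 0 for the trophectoderm, hypoblast, genome activation, imprinted and cumulus lists. It was at or below 0 for the other 9. HOXC4, a patterning homeobox gene, had 12920 and 13294 bp in siKDM5BC embryos and 3750 and 4981 bp in 2-cell embryos (limma, BH adjusted p = 0.230). DAB2, an endocytic adaptor of extraembryonic lineages, had 620 and 834 bp in siKDM5BC embryos and was listed at 0 in both 2-cell libraries (BH adjusted p = 0.541). ALX4, a homeobox gene of limb and skull, had 11272 and 11131 bp in siKDM5BC embryos against 5416 and 4462 bp in 2-cell embryos.

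Lists of the early embryo held smaller shares of such genes. Higher without overlap were 16 of 25 pluripotency genes (64%), 12 of 18 hypoblast genes (66.7%) and 11 of 24 genome activation genes (45.8%). Among all genes 45.9% were higher. In these 3 lists 0 genes were lower, beside 7.82% of all genes. NANOG, a core pluripotency factor, had 5278 and 6269 bp in siKDM5BC embryos and 2720 and 1889 bp in 2-cell embryos. KLF5, which acts in the first lineages of the mouse embryo, had 3952 and 3268 bp in siKDM5BC embryos and 500 and 2059 bp in 2-cell embryos. HNF4A, an endoderm factor, had 906 and 1300 bp in siKDM5BC embryos and 229 and 349 bp in 2-cell embryos. ZSCAN4, known in the mouse for its burst at genome activation, had 10343 and 8714 bp in siKDM5BC embryos and 2449 and 2918 bp in 2-cell embryos (limma, BH adjusted p = 0.209). NOP58, a nucleolar protein, had 8400 and 6150 bp in siKDM5BC embryos and 2951 and 2272 bp in 2-cell embryos. None of these genes passed the test.

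Imprinted genes, which are expressed from 1 parental copy, had the largest median difference after the cumulus list. It was 0.77, and 0.25 as shares of library totals. Without overlap 18 of 30 genes were higher (60%) and 0 lower, beside 45.9% and 7.82% of all genes. RTL1, a placental gene of the DLK1 locus, had 16295 and 14954 bp in siKDM5BC embryos and 1517 and 1464 bp in 2-cell embryos (limma, BH adjusted p = 0.242). Untreated 4-cell embryos had 3065 and 2136 bp there. MAGEL2, a gene of the imprinted Prader-Willi region in human, had 929 and 233 bp in siKDM5BC embryos and was listed at 0 in both 2-cell libraries.

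Of 22 genes of H3K4 methylation 7 were higher and 2 lower without overlap, of 28 Polycomb and H3K27 genes 12 and 1, and of 16 DNA methylation genes 5 and 2. The shares higher were 31.8%, 42.9% and 31.3%, beside 45.9% of all genes. The shares lower were 9.09%, 3.57% and 12.5%, beside 7.82% of all genes. KMT2C, an H3K4 methyltransferase of enhancers, had 10599 and 10102 bp in siKDM5BC embryos and 4277 and 2201 bp in 2-cell embryos. KDM5A, another H3K4 demethylase of the family, had 2641 and 1988 bp in siKDM5BC embryos and 4320 and 3837 bp in 2-cell embryos. UHRF2, a ubiquitin ligase that binds modified DNA, had 5319 and 4333 bp in siKDM5BC embryos against 1247 and 445 bp in 2-cell embryos, and its paralogue UHRF1, which keeps DNA methylation through replication, had 1335 and 1581 bp in siKDM5BC embryos and 2831 and 2406 bp in 2-cell embryos. Neither passed the test, and the UHRF1 difference was positive with windows of 2.5 and 25 kb, at 0.13 and 0.029. TET1, which oxidises methylcytosine, had 3238 and 2848 bp in siKDM5BC embryos and 0 and 1435 bp in 2-cell embryos. The direction of the medians of all 3 lists turned when lengths were taken as shares of library totals.

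Ribosomal protein genes, which are marked in most dividing cells, had 41 of 78 higher (52.6%) and 3 lower (3.85%) without overlap. Among all genes the shares were 45.9% and 7.82%. RPL34, of the large ribosomal subunit, had 4936 and 4686 bp in siKDM5BC embryos and 2504 and 541 bp in 2-cell embryos. RPL22 had 2904 and 3466 bp in siKDM5BC embryos and 4262 and 4043 bp in 2-cell embryos.

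Germline and carried-over cells were covered by 3 lists. Of 27 oocyte and maternal-effect genes, 13 were higher (48.1%) and 2 lower (7.41%) without overlap, near the 45.9% and 7.82% of all genes. ZP3, a zona pellucida glycoprotein, had 4023 and 5196 bp in siKDM5BC embryos and 2420 and 0 bp in 2-cell embryos. PADI6, a maternal-effect gene of the oocyte lattice, had 855 and 2203 bp in siKDM5BC embryos and 4932 and 2457 bp in 2-cell embryos. Of 21 genes of cumulus and granulosa cells, which surround the oocyte, 12 were higher (57.1%) and 1 lower (4.76%). Their median length over the list was 2483 and 1958 bp in siKDM5BC libraries, against 462 and 1372 bp in 2-cell libraries. EREG, an ovulatory growth factor of these cells, had 2483 and 2765 bp in siKDM5BC embryos and 0 and 1372 bp in 2-cell embryos. Of the 21 genes 19 and 18 had a peak in siKDM5BC libraries and 12 and 19 in 2-cell libraries, with summed lengths of 66403 and 60885 bp against 33899 and 39611 bp. FSHR and CYP11A1, defining genes of granulosa cells, were at 0 in all 4 libraries. The part of cells carried over into the samples was not tested. Of 23 sperm genes 9 were higher (39.1%) and 5 lower (21.7%), beside 45.9% and 7.82% of all genes. This was the largest share lower of the 14 lists. The summed length was 75950 and 75870 bp in siKDM5BC libraries and 68912 and 61693 bp in 2-cell libraries, and TNP1, a packaging protein of sperm chromatin, was at 0 in all 4. CRISP2, an acrosomal protein gene, had 687 and 962 bp in siKDM5BC embryos and 2056 and 1626 bp in 2-cell embryos. In the other direction, ZPBP had 4220 and 6582 bp in siKDM5BC embryos and 1084 and 1172 bp in 2-cell embryos.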

How the data were processed

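Peak lists of ULI-NChIP-seq libraries were used as the authors deposited them, 1 per library. Per the submitters' processing notes the tools were Bowtie2 2.4.1 and MACS2 and the genome build was susScr11. The caller's version, control and threshold are not given in the sources used here. In the deposited lists the seventh column is the authors' fold ratio of each peak against background, followed by −log10 p and then −log10 q as the authors deposited them. Starts and ends are in bp, counted from 0 in the lists and from 1 in the text. No read counts are given, so depth is unknown. The background in reads per position was recovered from the fold and −log10 p columns by a Poisson tail and serves only as a guide.

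Peaks on chromosomes 1 to 18 entered the comparisons, without those on X, Y or unplaced sequences unless a sentence says otherwise. Regions, classes and covered lengths were computed with Python 3.11.15 and numpy 2.4.6. Group values were compared by an exact permutation test over the 6 splits of 4 libraries. Genes were those of the RefSeq annotation of Sscrofa11.1, the same assembly, with 18722 coding genes on these chromosomes. The planned window was the gene start, but the annotation gives no strand, so both ends were used. Covered bp within 5 kb of either end were tested as log2(bp + 100) with limma 3.58.1 in R 4.3.3 (lmFit, eBayes with trend) over all 18 H3K4me3 libraries in 9 groups. Genes with over 500 bp in at least 2 libraries were tested, with BH adjustment and a threshold of 0.05. The classification and the limma step were tested on simulated data.

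Named genes are the targets, up to 10 genes past the threshold in each direction without overlap, and the 5 widest or most widened regions of each class. In each list the 2 genes with the largest higher and the gene with the largest lower difference were taken among those without overlap. Only some of the genes so taken are named in the text, by no fixed rule. These genes, the narrowed regions and the widest siKDM5BC domains were chosen after their values were seen. One wide domain and the widened region in it are not reported here. The regions, lists and tests were chosen with earlier results of these data known.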

Additional observations from a re-analysis of the deposited data

Results flagged for a closer look

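The siKDM5BC lists were the only ones of the 30 with peaks on unplaced sequences, which no comparison above uses. There were 1212 such peaks in siKDM5BC replicate 1 and 1087 in siKDM5BC replicate 2, against 0 in both 2-cell lists and in the other 26 lists. Whether the lists were filtered in different ways, and what part that has in the comparisons, was not tested. Chromosomes 1 to 18, which the comparisons use, were present in all 30 lists.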

How the results depend on the processing

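The log2 difference in covered length and the difference in wide share kept their sign in every alternative run, but their size moved. The first was 0.18 with joined peaks, 1.65 with fold of 3.5 or more, 2.18 with −log10 q of 2 or more and 6.16 with 3 or more, and between 0.40 and 0.65 under the others. Covered length has no value at equal covered length, where it is equal by construction. The distal difference was −5.19 points with −log10 q of 3 or more and −6.88 at equal covered length. Kept, widened, lost and new regions numbered 4897, 1835, 239 and 12980 with −log10 q of 2 or more, 71, 17, 10 and 13329 with 3 or more, and 24500, 11022, 14515 and 732 at equal covered length. With fold of 3.5 or more 5517 were kept, 2033 widened and 635 lost. Joining peaks under 3 kb apart gave 27956 kept, 6241 widened, 2833 lost and 3487 new, and regions of either library 68239, 38404, 61489 and 34331. With 50% of the region covered 13482 were lost and 26426 new, and with a common lowest fold 3580 were new. Leaving out 1 library gave 45301 to 59295 kept, 19397 to 34177 widened, 9312 to 38357 lost and 11717 to 25781 new.

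Genes called by limma as higher and lower numbered 4060 and 12 with −log10 q of 2 or more, 11547 and 0 with 3 or more, 2369 and 27 with fold of 3.5 or more, and 35 and 92 at equal covered length. Beside that 0, 0 genes were lower at an unadjusted p under 0.05. They numbered 20 and 17 with a common lowest fold, 44 and 9 with windows of 2.5 kb, 6 and 0 with 25 kb (223 lower at an unadjusted p under 0.05), 17 and 13 with a pseudocount of 10 bp, 61 and 12 with 1000 bp, 57 and 24 with no filter, 0 and 0 with 4 libraries, and 2 and 1 as shares of covered length. Joined peaks gave 16 higher and chromosome X 17. Without 1 library, where the lone one is assumed to vary like the other groups, they numbered 0 to 52 and 0 to 7. Replicate numbers did not pair the samples (correlation of same-numbered deviations −0.03), and a replicate block gave 6 and 3.

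Of genes named, these changed sign. KDM5A was at 4.58 with −log10 q of 2 or more and of 3 or more, and 2.16 with fold of 3.5 or more. KDM5B was at 0.38, 5.88 and 0.38 under these settings, 0.14 and 0.19 with windows of 2.5 and 25 kb, and −0.30 to 0.11 without 1 of the 4 libraries. RPL22 was at 0.64, 5.03 and 0.63, and 0.65 with 25 kb. UHRF1 was at 0.13 and 0.029 with 2.5 and 25 kb. PANK1 was at −2.39 with fold of 3.5 or more and −3.20 at equal covered length. The cause of these changes was not tested.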
